A study of Mus musculus with 10 samples.

Results

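The interferon response and antigen presentation genes are 36 mouse genes picked by name: interferon-stimulated antiviral effectors, the factors that switch them on, RNA sensors, interferon gamma-induced genes, interferon receptors and the machinery of MHC class I presentation. Each gene was read by 1 probe set, the one with the highest mean over the 10 arrays among those annotated to that symbol alone. In this way 34 of the 36 were measured, of 18193 genes with such a probe set. Ifi44 had no listed probe set, and the only probe set of Isg15, the ubiquitin-like interferon-stimulated protein, also names Gm9706, so neither is described. Of the 34, 29 lay above the limit for dim genes, 4.59 log2 units, and were tested among 12735 genes. The other 5 (Ifit1, Oasl1, Oasl2, Mx1 and Cxcl10) lay below it. The rule lists the members by name and uses no measured value, though it was written with earlier results of these data known.

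The arrays measured RNA of sorted mouse T-ALL cells, a leukemia of immature T cells, driven by ICN1, the active intracellular form of the receptor NOTCH1. All leukemias, in both groups, carried the ROSCreERT2 transgene, a Cre recombinase that tamoxifen activates, and CnB1, which encodes the regulatory subunit of the phosphatase calcineurin (current symbol Ppp3r1), floxed on both alleles. Leukemic secondary recipients received Tamoxifen, which deletes CnB1 (TAM, 5 arrays), or its corn oil solvent alone, which leaves CnB1 in place (OIL, 5 arrays), and the question was what calcineurin loss does to these cells. Marrow with over 50% leukemic cells was sorted on GFP or a similar marker. OIL cells had no active Cre, so deletion of CnB1, Cre activity and tamoxifen itself cannot be told apart, and the age and strain of the mice are not given in the sources used here. The labels 204, 206, F3, F3.1 and F3.2 occur once in OIL and once in TAM (the last number of F3.1 and F3.2, which is not the same in OIL and TAM, is left off). What the labels stand for, and whether each array is a separate mouse, is not stated, so a p-value here speaks of the spread between samples that may be technical replicates.

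Interferons bind receptors on the cell surface (IFNAR1 and IFNAR2 for type I, IFNGR1 and IFNGR2 for interferon gamma) that act through JAK kinases and STAT proteins. Type I interferon assembles a complex with STAT2 and IRF9 that binds the interferon-stimulated response element (ISRE) in the promoters of antiviral genes, and interferon gamma acts in part through IRF1 on guanylate-binding proteins and on antigen presentation. MHC class I molecules, each with the light chain B2M, are loaded with peptides that the TAP1 and TAP2 transporter brings into the endoplasmic reticulum and that tapasin (TAPBP) helps to fit, and T cells read these complexes.

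The ISRE core was searched to show which members hold it before their start. A few promoters are shown, of genes with large differences below and of effectors that hold several matches. In 250 bases before the transcription start, taken from RefSeq (GRCm38.p6), the letters GAAANNGAAA on either strand, overlaps allowed, occurred in 11 of the 28 members in the promoter table (39.3%) and in 936 of its 27025 genes (3.46%). The members with a match were Ifit1, Ifit3, Isg15, Oas1a, Rsad2, Bst2, Stat2, Cxcl10, Gbp2, Gbp3 and B2m. A match is a description of letters, not a shown binding site. Many members were picked by name as interferon-stimulated genes, so a share above that of all genes was likely in advance. The windows of 60 bases below are written 5′ to 3′ along the gene, with each match in capitals. Gbp2 (chr3:142620592-142620651, + strand) and Gbp3 (chr3:142559984-142560043, +) lie near each other. Ifit3 (chr19:34583361-34583420, +), Oas1a (chr5:120907526-120907585, -) and Bst2 (chr8:71537555-71537614, -) are effectors with 2 matches each. Irf9 (chr14:55603925-55603984, +) and Tapbp (chr17:33919418-33919477, +) had none, and their last 60 bases before the start are shown for contrast.
Gbp2: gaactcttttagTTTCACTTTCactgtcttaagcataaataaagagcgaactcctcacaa
Gbp3: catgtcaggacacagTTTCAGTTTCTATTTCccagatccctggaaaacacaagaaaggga
Ifit3: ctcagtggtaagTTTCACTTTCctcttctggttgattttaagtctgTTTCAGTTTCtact
Oas1a: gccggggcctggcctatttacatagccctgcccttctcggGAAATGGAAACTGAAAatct
Bst2: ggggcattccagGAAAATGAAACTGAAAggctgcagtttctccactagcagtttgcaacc
Irf9: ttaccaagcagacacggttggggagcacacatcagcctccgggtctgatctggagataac
Tapbp: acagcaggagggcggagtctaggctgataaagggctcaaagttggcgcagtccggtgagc

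The deposited values are log2 levels, so a difference of 1 is a doubling, and levels of different genes are not compared with each other. The deletion was read by 2 probe sets of Ppp3r1. The dimmer averaged 5.32 ± 0.58 over the OIL arrays, against 3.26 ± 0.21 over the TAM arrays (SD, n = 5), with a two-sided exact permutation p of 0.00794, the smallest an exact permutation test of 5 arrays against 5 can give. The brighter, which the rule for choosing probe sets takes, was 9.80 ± 0.09 and 9.67 ± 0.04 (two-sided exact permutation p = 0.0238). Its difference of -0.12 was not called in the fit without a block (limma adjusted p = 0.438). Whether the probes of either Ppp3r1 probe set read the deleted exons is not known here. The arrays were T lineage cells by their markers: 16 of 16 measured T lineage markers lay above the limit, with a mean level of 10.44 to 10.92 in OIL and 10.47 to 10.84 in TAM. These means hide single markers, of which 12 were higher and 4 lower in TAM. Cd2 was 10.33 to 11.36 in OIL and 9.69 to 10.32 in TAM. It alone was called, with the replicate label as a block (limma adjusted p = 0.0271, and 0.0588 without the block). Cd8a ran from 7.79 in OIL 204 to 11.25 in TAM F3.2 and was not called. In a sorted population, fewer cells of a type and less RNA per cell cannot be told apart. Macrophage and monocyte markers averaged 4.73 to 5.02 in OIL and 4.92 to 5.39 in TAM, with 10 of 14 measured above the limit and Cd14, C1qb, C1qc and Itgam below it. Neutrophil markers averaged 4.81 to 6.41 and 5.27 to 6.88 (7 of 9 above the limit). These averages include dim markers and hide a wide spread of single ones. S100a8 ran from 5.06 in OIL 204 to 10.07 in TAM F3, and S100a9 from 4.71 to 9.52 in the same arrays. Elane stayed within 4.62 to 4.89. Neutrophil RNA was thus not uniformly low, and its part in the treatment differences was not tested. B cell markers averaged 5.04 to 5.16 and 4.93 to 5.11 (5 of 9 above the limit), and dendritic cell markers 5.66 to 6.10 and 5.86 to 6.23 (7 of 10). NK cell markers averaged 5.36 to 5.73 and 5.57 to 5.66 (6 of 9), and erythroid markers 4.66 to 4.89 and 4.72 to 4.82 (4 of 6). The NK cell average hides Gzma, which was 12.45 to 13.31 over all arrays, while Klrd1 stayed at 2.45 to 3.09. Which cells gave the Gzma RNA was not tested.

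Most interferon and antigen presentation genes did not pass the test between TAM and OIL, and those that did pass, with the block described next, went in different directions. With the replicate label as a block, the GTPase gene Gbp2 and the tapasin gene Tapbp rose in TAM and the peptide transporter gene Tap2 fell, by 0.74, 0.48 and -0.61 log2 units. None of the 29 tested members passed in the fit without a block (limma, adjusted p under 0.05), in which 0.471% of all genes were called, and 5 of 29 had an unadjusted p under 0.05, against 13.0% of all genes. With the block, 3 of 29 were called (10.3%, against 3.38% of all genes) and 10 of 29 had an unadjusted p under 0.05 (34.5%, against 22.4%). The median difference of the 29 members was -0.01, beside -0.03 over all genes tested, and 13 were positive and 16 negative. All 5 pairs of arrays with the same label moved the same way for 6 members (20.7%, against 21.9% of all genes): Gbp2, Irf9, Tapbp and Ifnar1 were higher in TAM and Tap2 and Irf7 lower. The groups did not overlap for 2 members, Irf9 and Tap2 (6.90%, against 3.27% of all genes).

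**Figure D1:**
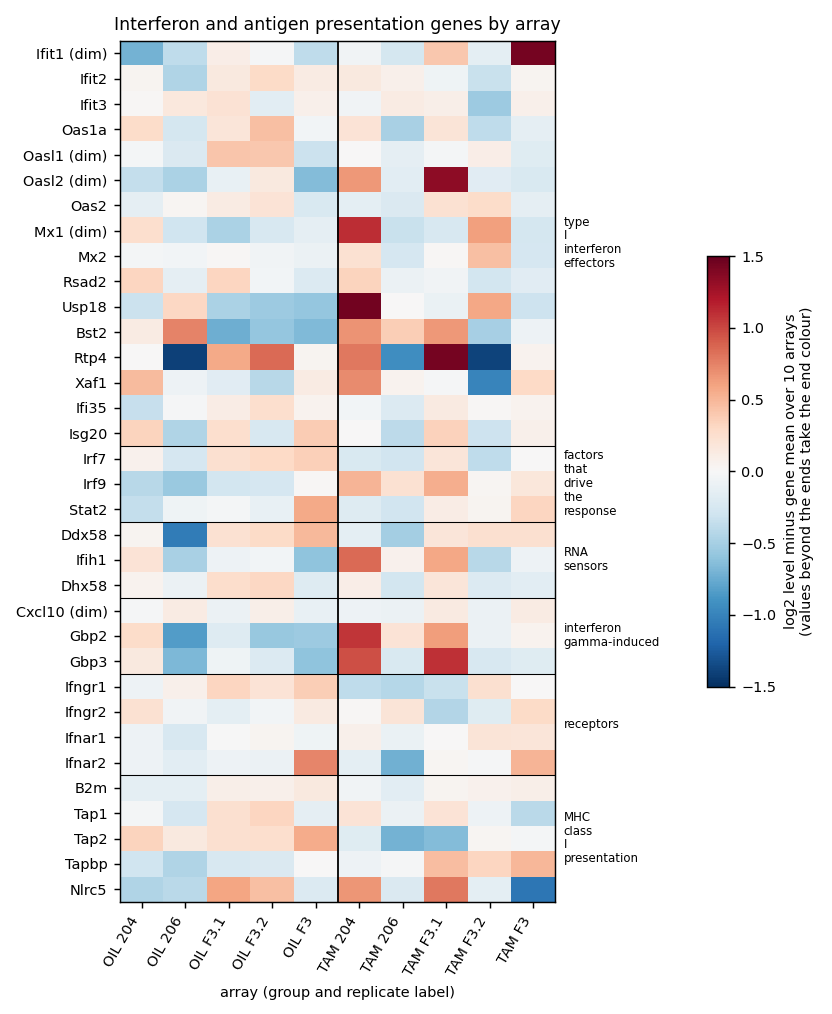
Level of each of the 34 measured members in each of the 10 arrays, as the log2 level minus the gene's own mean; rows are genes grouped by role, columns are arrays, and the black line parts OIL from TAM. No column is uniformly high or low, and the widest ranges are those of Rtp4 (2.84), Usp18 (2.02) and the dim genes Ifit1 (2.15) and Oasl2 (2.00).

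Among the 18 type I interferon effectors, 12 were tested and none was called, with or without the block, and the median difference was -0.02 (range -0.24 to 0.65). Ifit2, which binds viral RNA, was 8.28 ± 0.28 (SD, n = 5) in OIL, against 8.22 ± 0.18 in TAM, and differed by -0.06 with a 95% interval of -0.37 to 0.25. Oas2, an oligoadenylate synthetase that activates RNase L, differed by 0.00 (-0.27 to 0.28), and Rsad2 (viperin) by -0.10 (-0.42 to 0.21). Rsad2 was 6.33 to 6.86 in OIL and 6.26 to 6.87 in TAM, so its groups covered the same range. These 3 intervals do not exclude differences as far as -0.42 or 0.28. Also uncalled were Oas1a (-0.24), Ifit3 (-0.12), the exonuclease gene Isg20 (-0.11), Rtp4 (-0.02), Ifi35 (-0.01), Xaf1 (0.02), the dynamin-like GTPase gene Mx2 (0.08) and Bst2 (0.44), which encodes tetherin, a protein that holds budding virus at the cell surface. Oas1a was 7.11 to 7.82 in OIL and 6.88 to 7.57 in TAM, and Isg20 was 5.86 to 6.70 and 5.92 to 6.66. Mx2 lay within 5.60 to 5.70 in OIL and spread over 5.43 to 6.14 in TAM, with the highest value in TAM F3.2. Bst2 spread over 7.47 to 8.95 in OIL and 7.70 to 8.87 in TAM.

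Usp18, which encodes the protease that removes ISG15 from proteins and dampens the type I receptor, had the largest difference among the effectors. It was 5.19, 5.82, 5.04, 4.97 and 4.94 in OIL 204, 206, F3.1, F3.2 and F3, and 6.96, 5.52, 5.41, 6.10 and 5.20 in the TAM arrays of the same labels. TAM 204 and TAM F3.2 stood above every OIL array, while the other TAM arrays lay within the OIL range. The difference of 0.65 (SE 0.31, higher in 4 of 5 pairs) did not pass (limma adjusted p = 0.427, and 0.216 with the block).

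Of the 4 dim effectors, 3 had TAM arrays above every OIL array. Ifit1 was 3.32 to 4.13 in OIL, 5.47 in TAM F3 and 4.44 in TAM F3.1, and 3.77 to 3.98 in the other TAM arrays. Oasl2 was 2.90 to 3.70 in OIL, 4.90 in TAM F3.1 and 4.20 in TAM 204, and 3.33 to 3.40 in the others. Mx1 was 3.51 to 4.23 in OIL, 5.09 in TAM 204 and 4.59 in TAM F3.2, and 3.65 to 3.74 in the others. The highest value of each was in a different array, and these genes were below the limit on average and not tested. Oasl1 was 4.24 to 4.98 in OIL and 4.39 to 4.67 in TAM, so its groups overlapped, and the chemokine gene Cxcl10 lay between 3.55 and 3.80 on all 10 arrays.

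Of the 3 factors that drive the response, Irf9 stood closest to the threshold. Irf9, the DNA-binding subunit of the type I complex, was 6.63, 6.49, 6.77, 6.79 and 7.06 in OIL 204, 206, F3.1, F3.2 and F3, and 7.56, 7.27, 7.59, 7.07 and 7.22 in the TAM arrays of the same labels. Every TAM array lay above every OIL array, narrowly so for TAM F3.2 against OIL F3. The difference was 0.59 (SE 0.13, 1.51-fold), with limma adjusted p = 0.086 without the block and 0.0523 with it. Irf7, an amplifier of type I interferon production, was lower in 5 of 5 pairs by 0.03 to 0.67 (difference -0.28, adjusted p = 0.438, and 0.162 with the block). Stat2, a partner of IRF9, was 4.94 ± 0.34 in OIL and 4.94 ± 0.24 in TAM.

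The RNA sensors were not called. Ifih1 (MDA5, which senses long double-stranded RNA) was higher in TAM in 4 of 5 pairs, by 0.39 on average (adjusted p = 0.549, and 0.192 with the block), and pair F3.2 differed by -0.39. Ddx58 (RIG-I, which senses RNA ends) differed by 0.00 (95% interval -0.60 to 0.61) and Dhx58 (LGP2, a regulator of both) by -0.14.

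**Figure D2:**
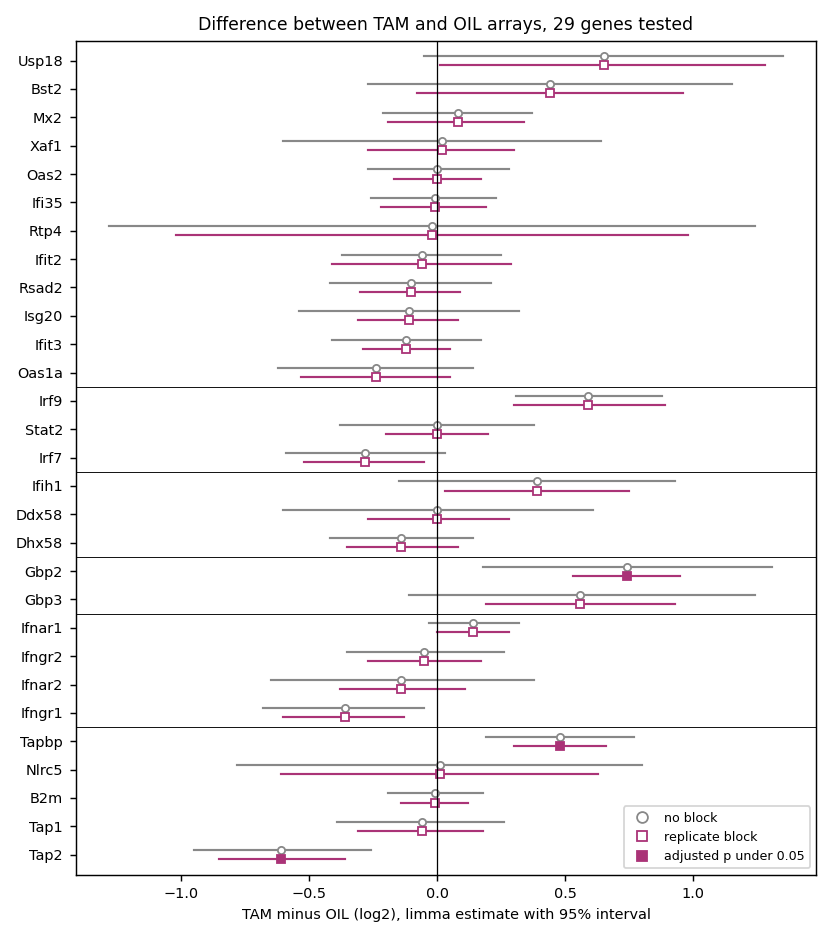
Difference TAM minus OIL (log2) of the 29 tested members with its 95% interval, without a block (grey circles) and with the replicate label as a block (purple squares; filled where the adjusted p is under 0.05); lines part the roles. Gbp2, Tapbp and Tap2 are the 3 filled squares, and the block narrows most intervals.

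Of the 3 interferon gamma-induced genes, 2 were tested, the GTPase genes Gbp2 and Gbp3, while Cxcl10 was dim and differed by 0.00. The median of the 2 was the largest of any role, 0.65, but rests on 2 related genes that lie near each other. Gbp2, which encodes a guanylate-binding protein that coats membranes of intracellular microbes, was 8.25, 7.14, 7.78, 7.41 and 7.43 in OIL 204, 206, F3.1, F3.2 and F3, and 9.04, 8.18, 8.60, 7.88 and 8.02 in the TAM arrays of the same labels. Each TAM array was above its OIL partner, by 0.48 to 1.04, but the groups overlapped because OIL 204 lay above 3 of the TAM arrays. Gbp2 rose by 0.74 (1.67-fold) in the blocked fit (SE 0.09, adjusted p = 0.0103), and without the block the SE was 0.25 and the adjusted p 0.247. The second Gbp2 probe set gave a difference of 0.60. The one used is of a kind whose probes can match several transcripts, and guanylate-binding protein genes are near-identical in parts; whether relatives add to its signal was not tested. The call held in 7 of 8 alternatives of the blocked fit and was lost without the pair F3.1 (0.73, adjusted p = 0.0538).

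Gbp3, which lies on chromosome 3 with only Gbp2b between it and Gbp2 among protein-coding genes, was 7.67, 6.86, 7.46, 7.32 and 6.92 in OIL 204, 206, F3.1, F3.2 and F3, and 8.49, 7.30, 8.62, 7.29 and 7.35 in the TAM arrays of the same labels. TAM 204 and TAM F3.1 were the highest, and pair F3.2 showed nearly no difference (-0.04). The difference of 0.56 did not pass (adjusted p = 0.483, and 0.0959 with the block).

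**Figure D3:**
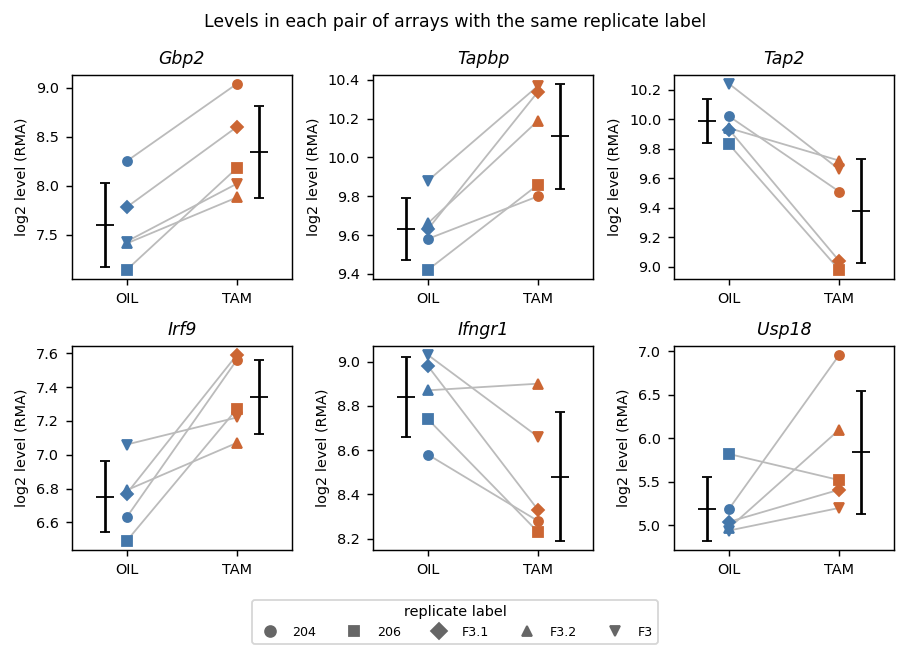
Levels (log2) of 6 members in OIL (blue) and TAM (orange) arrays, with lines that join arrays of the same label and bars for the mean ± SD of 5 arrays. For Gbp2, Tapbp and Irf9 all 5 lines go up and for Tap2 all go down, while Ifngr1 and Usp18 each have 1 line against the rest.

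Among the receptor subunits none was called. Ifngr1, the ligand-binding chain of the interferon gamma receptor, was 8.58, 8.74, 8.98, 8.87 and 9.03 in OIL 204, 206, F3.1, F3.2 and F3, and 8.28, 8.23, 8.33, 8.90 and 8.66 in the TAM arrays of the same labels. It was lower in TAM in 4 of 5 pairs, and pair F3.2 differed by 0.02. The difference of -0.36 (SE 0.14) had an adjusted p of 0.312, and 0.0904 with the block. Its signalling partner Ifngr2 differed by -0.05, and the type I receptor chains by 0.14 for Ifnar1, higher in 5 of 5 pairs (adjusted p = 0.501, and 0.213 with the block), and by -0.14 for Ifnar2. The dimmer probe set of Ifnar1 differed by 0.45.

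Within MHC class I presentation, 2 members passed in opposite directions in the blocked fit, and the others differed by -0.06 to 0.01. Tapbp encodes tapasin, which ties MHC class I molecules to the peptide transporter. It was 9.58, 9.42, 9.63, 9.66 and 9.88 in OIL 204, 206, F3.1, F3.2 and F3, and 9.80, 9.86, 10.34, 10.19 and 10.37 in the TAM arrays of the same labels. All pairs went up, by 0.22 to 0.71, and only OIL F3 reached into the TAM range. Tapbp rose by 0.48 (1.39-fold) in the blocked fit (SE 0.08, adjusted p = 0.0252), and without the block the adjusted p was 0.161. Its dimmer probe set differed by 0.24. The call was lost without the pair 206 (adjusted p = 0.0691), F3 (0.0895) or F3.1 (0.0929), with differences of 0.49, 0.48 and 0.42.

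Tap2, which encodes a subunit of the peptide transporter, was 10.02, 9.83, 9.93, 9.94 and 10.24 in OIL 204, 206, F3.1, F3.2 and F3, and 9.51, 8.98, 9.04, 9.72 and 9.66 in the TAM arrays of the same labels. Every TAM array lay below every OIL array, and the pairs differed by -0.89 to -0.21. Tap2 fell by 0.61 (1.52-fold) in the blocked fit (SE 0.10, adjusted p = 0.0293), and without the block the adjusted p was 0.135. It has a single probe set. The call was lost without the pair 206 (adjusted p = 0.0754), 204 (0.0799), F3 (0.0939) or F3.1 (0.104), with differences of -0.55, -0.63, -0.62 and -0.54.

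The other subunit, Tap1, and the neighbours Psmb8 and Psmb9 were called in neither fit. On chromosome 17 the protein-coding genes Psmb9, Tap1, Psmb8 and Tap2 follow each other, and Psmb8 and Psmb9 encode immunoproteasome subunits that cut peptides for MHC class I. Tap1 was 9.11 ± 0.25 (SD, n = 5) in OIL, against 9.04 ± 0.25 in TAM, and differed by -0.06 (95% interval without the block -0.39 to 0.26). Without the block, where Tap2 itself had a limma adjusted p of 0.135, Psmb8 differed by -0.12 (adjusted p = 0.5) and Psmb9 by 0.04 (0.92). Psmb8 was lower in TAM in all 5 pairs, least in F3.1 (11.67 against 11.69 in OIL) and most in 206 (11.55 against 11.81). Both genes were set beside Tap2 after their values were seen. B2m, the light chain, was 13.05 ± 0.14 and 13.04 ± 0.10, and its 95% interval of -0.19 to 0.18 was the narrowest among these 5 members. Nlrc5, the transactivator of MHC class I genes, was 7.44, 7.49, 8.48, 8.35 and 7.69 in OIL 204, 206, F3.1, F3.2 and F3, and 8.56, 7.68, 8.69, 7.75 and 6.81 in the TAM arrays of the same labels. It differed by 0.01 on average, but its pairs ran from -0.88 in F3 to 1.13 in 204. The MHC class I heavy chain genes H2-K1 and H2-D1, also chosen after their values were seen, differed by 0.08 and -0.05.

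The pairs were not alike. Of the 29 tested members, 19 were higher in TAM in pair 204, 17 in F3.1, 15 in 206, 15 in F3 and 11 in F3.2, and the median difference ran from 0.14 in 204 to -0.07 in F3.2. Over all genes tested the medians were -0.03 and -0.07 in these 2 pairs. For Gbp3, Ifngr1, Ifih1, Rtp4 and the used probe set of Xaf1, pair F3.2 went against the sign of the other 4 pairs, by as much as -2.23 for Rtp4. The 2 F3.2 arrays deviated together least (Pearson r = 0.184, against 0.585 to 0.804 for the other labels), so it is uncertain that they form a pair. Without the F3.2 arrays the blocked fit called 7 members: Gbp2, Tapbp and Tap2 as before, and Irf9 (0.67, adjusted p = 0.0497), Ifih1 (0.59, 0.0122), Gbp3 (0.71, 0.0424) and Ifngr1 (-0.46, 0.0343). In that fit 3.42% of all genes were called. Without F3.1 it called no member (0.683% of all genes), and without 204, 206 or F3 it called 2, 1 and 1 (1.15%, 1.44% and 1.2% of all genes).

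The members were also compared across labels, where no member passed. The shares with an unadjusted p under 0.05 or without overlap lay near those of all genes. The arrays with an F3 stem (F3, F3.1 and F3.2; 6 arrays) were compared with those with numeric labels (204 and 206; 4 arrays), with treatment as a term and the label as a random block. This split was known from earlier results of these data to hold the largest variation. Many calls over all genes were therefore likely in advance, and the adjusted p-values of this comparison do not account for that choice. None of the 29 members passed (limma adjusted p under 0.05, where 6.56% of all genes were called), and 7 of 29 had an unadjusted p under 0.05 (24.1%, against 21.5% of all genes). The 2 sets of arrays did not overlap for Ifi35, Ddx58 and B2m, 3 of 29 (10.3%, against 11.5% of all genes). The median difference was 0.11, beside 0.00 over all genes, and 20 of 29 members were positive, beside 6503 of 12735 genes. All 5 MHC class I members were positive, by 0.07 to 0.35, and so were all 3 driving factors, by 0.10 to 0.37. These signs were not all stable. Tap1 was -0.06 with the mean of its probe sets, Nlrc5 was -0.05 without OIL 204, and the second Stat2 probe set gave -0.12.

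Tapbp, whose levels by array are given above, came closest to the threshold with 0.35 (SE 0.10, adjusted p = 0.0678), and fell to 0.15 with the mean of its probe sets. Ddx58 was 6.68 and 6.49 in OIL and TAM 204, 5.59 and 6.13 in 206, 6.87 and 6.82 in F3.1, 6.93 and 6.88 in F3.2 and 7.13 and 6.88 in F3. Both 206 arrays were the lowest, OIL 206 by the wider gap, and the difference of 0.70 had an adjusted p of 0.0728. B2m was 12.89 to 12.99 on the numeric arrays and 13.09 to 13.20 on the F3-stem arrays, a difference of 0.21 (adjusted p = 0.0876), and its other probe set gave 0.21 as well. Ifi35 was 9.33 to 9.66 and 9.70 to 9.93 (0.26, adjusted p = 0.187).

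Bst2 differed in the other direction. It was 8.32 and 8.87 in OIL and TAM 204, 8.95 and 8.57 in 206, 7.47 and 8.85 in F3.1, 7.62 and 7.70 in F3.2 and 7.54 and 8.12 in F3. All numeric arrays were high, and TAM F3.1 was the F3-stem array among them. The difference of -0.79 (SE 0.28) had an adjusted p of 0.132. Without TAM F3.1 it was -0.97 and passed (adjusted p = 0.0155), as did Ifngr1 (0.40, 0.049). Bst2 also marks plasmacytoid dendritic cells and is 1 of the 10 dendritic cell markers. Their mean level, which includes Bst2, was 5.66 to 6.23 on numeric and 5.82 to 6.15 on F3-stem arrays. The 7 tested markers did not move together, with 4 higher and 3 lower on F3-stem arrays. Tcf4 was called lower, at 8.85 to 9.38 on numeric and 7.51 to 8.24 on F3-stem arrays. Ccr9 went the other way, at 6.10 to 8.87 and 8.36 to 10.12, and was not called. Siglech averaged below the limit, at 4.27 to 4.74 over all arrays, and the part of such cells in the result was not tested. Neutrophil markers averaged 4.81 to 5.53 on numeric and 5.38 to 6.88 on F3-stem arrays, and their part in the label differences was not tested either.

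**Figure D4:**
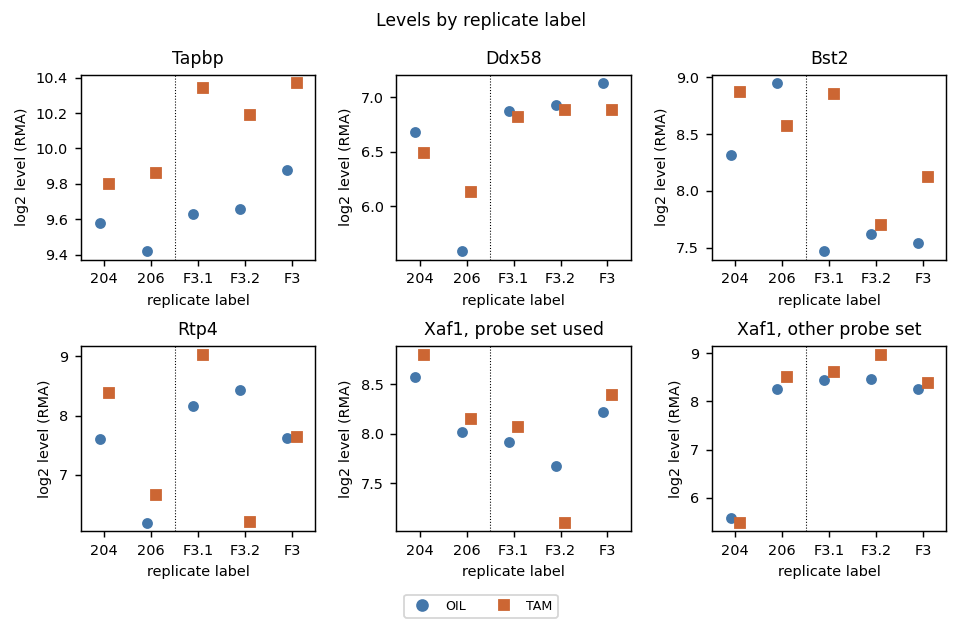
Levels (log2) of 4 members, and of both probe sets of Xaf1, by label, OIL as blue circles and TAM as orange squares; a dotted line parts numeric from F3-stem labels. Ddx58 and Rtp4 are lowest in 206 or, for Rtp4, also in TAM F3.2, and the second Xaf1 probe set is low in both 204 arrays alone.

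Several members varied by label or by single arrays. Rtp4, a chaperone of G protein-coupled receptors, was 7.60 and 8.38 in OIL and TAM 204, 6.19 and 6.66 in 206, 8.16 and 9.03 in F3.1, 8.44 and 6.20 in F3.2 and 7.63 and 7.64 in F3, so both 206 arrays and TAM F3.2 were low. Ifnar2 was 7.49 and 7.42 in OIL and TAM 204, 7.40 and 6.84 in 206, 7.49 and 7.59 in F3.1, 7.47 and 7.55 in F3.2 and 8.30 and 8.07 in F3, the highest label (stem difference 0.46, adjusted p = 0.234). The other Ifnar2 probe sets gave stem differences of 0.21 and -0.08. Usp18 was 5.19 to 6.96 on numeric and 4.94 to 6.10 on F3-stem arrays (-0.60, adjusted p = 0.351). Label 206 had the lowest mean of the 5 labels for 13 of the 29 members, while 204 and F3.1 had the highest for 8 each. The median member lay 0.17 below its own mean in OIL 206 and 0.20 below it in TAM 206, the lowest of all arrays, and 0.18 above it in TAM F3.1, the highest. The same median over all genes lay between -0.04 and 0.04 on every array.

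Xaf1, which encodes a partner of the apoptosis inhibitor XIAP, gave different answers by probe set. The used probe set was 8.57 and 8.80 in OIL and TAM 204, the highest of all arrays, 8.02 and 8.15 in 206, 7.92 and 8.07 in F3.1, 7.68 and 7.10 in F3.2 and 8.22 and 8.39 in F3. The second was 5.59 and 5.48 in the 204 arrays and 8.26 to 8.97 in the other 8. The label difference was -0.49 with the first (adjusted p = 0.326) and 1.56 with the second, and 0.54 with their mean, so no direction is given for this gene.

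The treatment difference was also compared between the label stems. No member passed this test of the interaction, nor did any gene of 12735 (limma, 0% called), and 1 of 29 members (3.45%, against 2.72% of all genes) had an unadjusted p under 0.05. That member was Ifit2, whose TAM minus OIL difference was 0.31 in numeric and -0.30 in F3-stem labels (interaction -0.62, unadjusted p = 0.023, adjusted p = 0.998). Nlrc5 had the largest interaction (-1.08, SE 0.69), with 0.66 in numeric and -0.42 in F3-stem labels. For Gbp2 the differences were 0.92 and 0.63, for Tapbp 0.33 and 0.58 and for Tap2 -0.68 and -0.56, so the direction was the same in both.

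Other genes of the pathway, from lists set by function with earlier results known, also held genes called in both directions. Of 51 further interferon-stimulated genes, 41 were tested, with a median difference of 0.02 between TAM and OIL. Without the block 1 of them was called, the guanylate-binding protein gene Gbp6, which rose by 0.87 (SE 0.16, adjusted p = 0.0488, 0.471% of all genes called). Gbp6 was 6.25, 6.27, 6.38, 6.06 and 6.65 in OIL 204, 206, F3.1, F3.2 and F3, and 7.42, 6.79, 7.13, 7.61 and 7.02 in the TAM arrays of the same labels, and the groups did not overlap. With the block, where 3.38% of all genes were called, 3 of 41 rose and none fell: Gbp6 (adjusted p = 0.0403), the immunity-related GTPase gene Iigp1 (0.90, 0.0365) and Epsti1 (0.98, 0.00627). Leaving out 1 array, Gbp6 stayed called without the block only when that array was OIL F3 or TAM 206 (adjusted p 0.0421 to 0.137), and it was also lost without the filter on dim genes, with the mean of probe sets, with centred arrays and with OIL F3.1 and OIL F3.2 averaged. With the block, its call was lost without the pair 204, 206, F3 or F3.1, and that of Iigp1 without 204, 206 or F3.1 (highest adjusted p 0.123 for each), while Epsti1 stayed called without any 1 pair (0.0121 to 0.0315). Iigp1 was higher in TAM in every pair, but its levels ran from 5.07 in OIL F3 to 8.92 in TAM 204. The other guanylate-binding and immunity-related GTPase genes tested in this list were called in neither fit: Gbp7 differed by -0.02, Ifi47 by -0.01, Irgm1 by 0.01, Igtp by 0.35 and Irgm2 by 0.48.

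Of 32 genes of interferon signalling and sensing upstream, 23 were tested and 1 fell in the blocked fit (3.38% of all genes called), Ptpn6 (-0.88, adjusted p = 0.0366, and 0.0623 without the block), which encodes the phosphatase SHP-1 that restrains receptor and JAK signalling. It was 9.48 to 10.38 in OIL and 8.74 to 9.27 in TAM, without overlap, and its call was lost without the pair 204, 206, F3 or F3.1 (up to 0.114) and with the mean of its probe sets. None of 18 tested MHC class I genes and peptide suppliers and none of 7 tested MHC class II genes was called in either fit, and their median differences were 0.03 and -0.04. A few genes stand in more than 1 of these lists, such as Psmb8 and Psmb9.

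**Figure D5:**
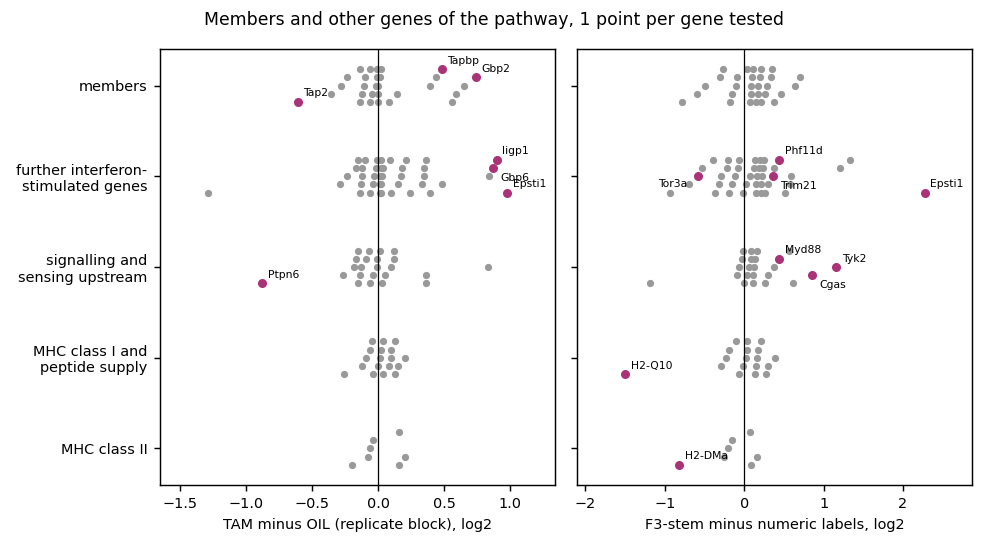
Difference (log2) of each tested gene, by list, for TAM minus OIL with the replicate block (left) and for F3-stem minus numeric labels (right), 1 point per gene; purple points have an adjusted p under 0.05 and are named. Most points of each list lie near 0 on both sides.

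Between label stems these lists held more called genes than the members. Epsti1, an interferon-responsive gene, was 5.87 to 7.51 on numeric and 8.32 to 9.46 on F3-stem arrays, and was higher in F3-stem labels by 2.27 (adjusted p = 3.64e-05). The kinase gene Tyk2, which relays the type I receptor signal, was 7.10 to 7.51 and 8.33 to 8.58 (1.16, adjusted p = 0.000292), and Cgas, the DNA sensor, was 7.16 to 7.75 and 8.22 to 8.56 (0.85, adjusted p = 0.0056). None of these 3 overlapped between the stems. Myd88 (0.44), Phf11d (0.44) and Trim21 (0.36) were also higher in F3-stem labels, and Tor3a (-0.58), H2-Q10 (-1.50) and H2-DMa (-0.82) lower. The calls of Epsti1, Tyk2, Cgas, Tor3a, H2-Q10 and H2-DMa held when any 1 array was left out. Those of Myd88, Phf11d and Trim21 were lost in 6, 5 and 5 of 10 such fits, each of them without TAM 204, TAM F3.2 or OIL F3.2 among others (adjusted p up to 0.0904, 0.102 and 0.0887). These 3 calls were also lost from label means and with OIL F3.1 and OIL F3.2 averaged, that of Myd88 with centred arrays and that of Trim21 with the mean of its probe sets. In all, 4 of 41 further interferon-stimulated genes, 3 of 23 upstream genes, 1 of 18 MHC class I and 1 of 7 MHC class II genes were called, against 6.56% of all genes.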

How the data were processed

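RNA of 10 samples, 5 OIL and 5 TAM, was measured on single-colour oligonucleotide arrays. The deposited values are log2 levels that the authors made with RMA (background correction, quantile normalization and probe set summary), per the submitters' processing notes. Its version is not stated. RMA removes shifts common to all genes. Precision is limited by the number of arrays, 5 a group. Values of 45101 probe sets ran from 1.74 to 14.02, and array medians from 5.07 to 5.13. In the platform annotation 34945 probe sets had 1 symbol, 932 several and 9160 none, beside 64 controls, and 34741 of the first matched RefSeq GRCm38.p6 by Entrez identifier. The probe set of highest mean stood for a gene, and the lowest 30% of genes were left out.

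limma 3.58.1 (lmFit, eBayes) in R 4.3.3 was fitted over all 12735 genes, on treatment alone for the main test (8 residual degrees of freedom), and genes were called at a Benjamini-Hochberg adjusted p under 0.05. The replicate block fit (4 residual degrees of freedom) was the alternative. Arrays of the same label, as spelled in the labels, deviated together from their group means (Pearson r over genes: F3 0.804, 204 0.763, 206 0.745, F3.1 0.585, F3.2 0.184), so labels were treated as pairs, and 7 of 10 arrays correlated best with their own label. The label comparison used treatment as a term and the label as a random block (correlation 0.282), and an interaction fit used both terms. The fits were tested on simulated data with independent noise on each array. Those data held no correlation between arrays of the same label, so that test does not cover this feature of the real arrays. Alternatives were other filters, the mean of all probe sets, median centring, averaging the F3.1 and F3.2 arrays of OIL, which were alike, and leaving out arrays; those of the blocked fit were chosen after the data were seen.

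The members, lists and tests were chosen with earlier results of these data known. All measured members are named. Values by array are given for called members and for the 6 with the largest differences by treatment and by label, and called genes are named from the other lists. Promoters came from RefSeq (GRCm38.p6). Python 3.11.15, pandas 2.3.3 and matplotlib 3.10.9 made tables and plots.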

Additional observations from a re-analysis of the deposited data

Results flagged for a closer look

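The 68 groups of 5 arrays (34 measured members, OIL and TAM) were searched for an array that stands apart from the other 4 by Dixon's ratio (critical value 0.71), and 3 groups held one; chance alone gives about 5% of groups. Ifit3 was 4.24 in TAM F3.2, below the limit for dim genes, against 4.74 to 4.91 in the other TAM arrays. Usp18 was 5.82 in OIL 206, against 4.94 to 5.19 in the other OIL arrays. Ifnar2 was 8.30 in OIL F3, against 7.40 to 7.49 in the other OIL arrays, and its TAM partner of the same label was also the highest TAM array, at 8.07. Another Ifnar2 probe set showed the same, with 8.0 in OIL F3 against 7.01 to 7.24 in the other OIL arrays. Its highest TAM array was also TAM F3, at 7.7. The third Ifnar2 probe set did not show this, with 7.59 in OIL F3 and its highest value, 7.71, in OIL 204.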

How the results depend on the processing

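No difference that was called reversed under any alternative. The count of members called between TAM and OIL was 0 in each alternative without a block, leaving out each array included (0 to 0), and 3 with the replicate block. In the blocked fit it was 3, and 3 to 4 under the mean of all probe sets, no filter or centred arrays, where Irf9 joined (0.62, adjusted p = 0.0472). Leaving out a label with both its arrays gave 0 (F3.1) to 7 (F3.2), with 1 without 206, 1 without F3 and 2 without 204; the differences of the 3 members lost there stayed at 0.73 for Gbp2, 0.42 to 0.49 for Tapbp and -0.63 to -0.54 for Tap2. For F3-stem against numeric labels the count was 0, 4 without the random block (Tapbp, Ddx58, B2m and Bst2), and 0 to 2 when an array was left out, 2 without TAM F3.1 and 1 without OIL F3. No member passed the interaction in any of 16 alternatives.

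Over all genes the count between TAM and OIL was 60, 431 with the block, 26 with the mean of all probe sets, 10 with OIL F3.1 and OIL F3.2 averaged, and 8 to 54 when an array was left out. For the label stems it was 835, 1507 without the random block, 331 from label means, 354 with the 2 OIL arrays averaged and 401 to 1472 without an array. With the block it was 87 to 436 when a label was left out. Uncalled members changed sign in 53 of 456 values for treatment (differences of at most 0.14), 28 of 231 with the block (0.08), 11 of 485 for the label stems (0.49, Xaf1) and 49 of 456 for the interaction (0.33), and the cause was not tested. Genes under the limit for dim genes have no test, and with 5 arrays a group small differences may go undetected.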
